A study of Mus musculus with 6 samples.

Results

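Igf2r, Meg3 and Peg13 are imprinted mouse genes, meaning that each is expressed mainly from the copy inherited from 1 parent. Their RNA was compared between tumours grown from Uhrf1-edited lung cancer cells and tumours grown from control cells. Each gene is represented by the row of the count tables that covers at least 50 bp of its exons and of no other gene's, and where several rows did so, by the one with most counts. All 3 genes had such a row, of 10766 genes that could be named in this way. The sgUhrf1 group has 3 tumours from LG1233-OVA cells, a murine lung cancer line, in which CRISPR/Cas9 with a guide against Uhrf1 had been used to make stable knockout lines. The sgNT group has 3 tumours from LG1233-OVA cells with the control guide, labelled wild type for Uhrf1. Both groups were grown under the skin of female C57BL/6 mice from 1000000 injected cells and taken on day 27, so each tumour also holds cells of an unedited host. The labels do not say whether a line is 1 clone, and they give no age for the mice. The labels number the tumours as biological replicates without naming the mouse or culture, so p-values measure the spread between these tumours.

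In imprinting, DNA methylation laid down on the maternal or the paternal copy in the germ line is kept through every later cell division, and it decides which copy is expressed. UHRF1 binds hemimethylated DNA after replication and brings the maintenance methyltransferase DNMT1 to it. The 3 genes differ in where the methylation sits. Igf2r encodes the receptor that binds mannose 6-phosphate on lysosomal enzymes and takes up IGF2 for degradation. It is expressed from the maternal copy, where methylation of a control region in one of its introns keeps the antisense long noncoding RNA Airn silent; the unmethylated paternal copy makes Airn, which silences Igf2r. Meg3 is a maternally expressed long noncoding RNA of the Dlk1-Dio3 cluster, whose intergenic control region and Meg3 promoter are methylated on the silent paternal copy. Peg13 is a paternally expressed long noncoding RNA that lies in an intron of Trappc9, and its promoter is methylated on the silent maternal copy. From this, known loss of imprint methylation lowers Igf2r, and it lets Meg3 and Peg13 be expressed from both copies. The files hold no methylation and no allele information, so only the total RNA of each gene was compared.

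The rows of the tables carry coordinates of one mouse build, GRCm39, while the alignments were made to another, GRCm38, so a row's listed name need not be the gene whose reads it counted. All coordinates here are GRCm38, with the row intervals used as listed and the exons of GENCODE M21. Igf2r (ENSMUSG00000023830.14) lies on the minus strand at chr17:12682406-12769664. Its row, listed as C030013G03Rik, has 1023 bp in 3 intervals, of which 268 bp are exon and 755 bp are Igf2r intron. Of these, 257 bp are the whole of coding exon 34 of 48, at chr17:12698086-12698342, and 7 bp and 4 bp are ends of exons 37 and 46. Meg3 (ENSMUSG00000021268.17) lies on the plus strand at chr12:109541001-109571726. Its row, listed as Rtl1, has 6358 bp, all inside Meg3, with 3429 bp of exon and 2929 bp of intron.

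Peg13 (ENSMUSG00000106847.1), a gene of a single exon, lies on the minus strand at chr15:72805600-72810324, and its row, listed as Trappc9, is of another kind. It has 7937 bp in 27 intervals between positions 72461469 and 72933053. A stretch of 164 bp, or 2.07% of the row, is Peg13, at chr15:72808811-72808974. A further 6761 bp lie elsewhere in Trappc9, in its introns, and 1012 bp lie outside genes. The counts of that row cannot be divided among its intervals, so its values are given as those of the Peg13 row, not of the Peg13 RNA.

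**Figure D1:**
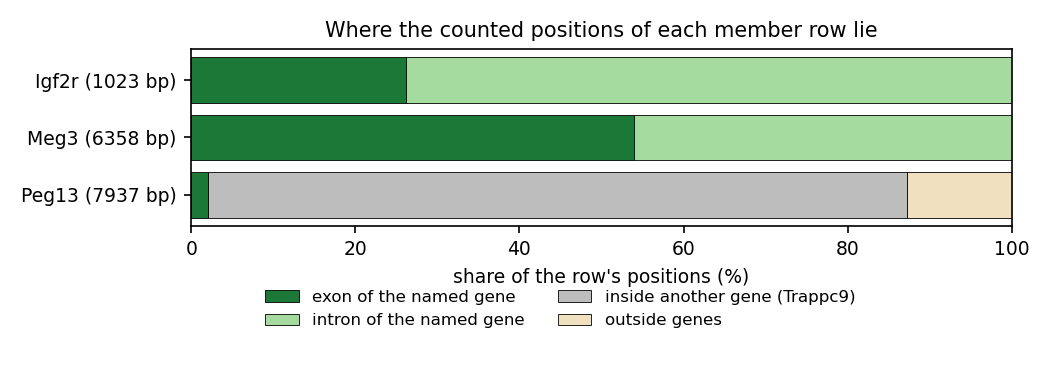
Share of the positions of each gene's row (horizontal axis, %) that are exon of the named gene, intron of the named gene, inside Trappc9 or outside genes. The exon share is 26.2% for the Igf2r row, 53.9% for the Meg3 row and 2.07% for the Peg13 row.

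Sequences were copied to show exon stretches counted in the rows of Igf2r and Peg13, and the CpGs before the starts of Igf2r and Meg3. The control region in the Igf2r intron and the Peg13 promoter are not among them. The following are the exon stretches of Igf2r and Peg13 that lie in their rows, taken from the GENCODE M21 transcripts, and the 250 bases before the RefSeq start of Igf2r at chr17:12769707-12769956 on the minus strand and of Meg3 at chr12:109540746-109540995 on the plus strand, from RefSeq's table for GRCm38.p6. All run 5′ to 3′, with each CpG, the pair of bases that UHRF1 and DNMT1 act on, in capitals.
Igf2r exon 34: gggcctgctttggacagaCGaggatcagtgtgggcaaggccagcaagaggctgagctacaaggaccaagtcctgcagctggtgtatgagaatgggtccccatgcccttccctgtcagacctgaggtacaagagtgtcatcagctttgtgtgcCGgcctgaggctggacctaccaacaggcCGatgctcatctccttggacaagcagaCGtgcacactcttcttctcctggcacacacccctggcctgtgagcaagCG
Peg13 exon stretch: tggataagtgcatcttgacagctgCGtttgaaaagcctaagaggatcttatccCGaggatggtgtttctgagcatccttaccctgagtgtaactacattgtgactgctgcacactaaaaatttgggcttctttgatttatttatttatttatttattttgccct
Igf2r promoter: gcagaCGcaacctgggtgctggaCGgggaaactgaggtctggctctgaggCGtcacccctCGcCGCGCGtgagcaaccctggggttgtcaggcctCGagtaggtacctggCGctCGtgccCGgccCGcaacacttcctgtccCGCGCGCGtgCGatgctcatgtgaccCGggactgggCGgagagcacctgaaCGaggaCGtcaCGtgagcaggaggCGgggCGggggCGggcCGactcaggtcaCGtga
Meg3 promoter: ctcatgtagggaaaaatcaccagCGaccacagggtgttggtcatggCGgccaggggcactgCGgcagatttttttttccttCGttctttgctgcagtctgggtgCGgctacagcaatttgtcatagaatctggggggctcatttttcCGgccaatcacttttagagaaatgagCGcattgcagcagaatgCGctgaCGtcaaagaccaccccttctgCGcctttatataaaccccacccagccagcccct
The Igf2r stretch has 27 CpGs, and 8.56% of 32851 promoter stretches of the same length in the table have at least as many, against a median of 6. The Meg3 stretch, from the first of 2 starts in the table, has 10 CpGs, a number that 37.8% of them reach. The stretch before the start of Airn, at chr17:12741061-12741310, has 2 CpGs. The letters TGCCGC, which the imprint factor ZFP57 is known to bind when methylated, were searched on both strands: the Meg3 stretch holds 1 match, on the strand opposite to the letters shown, the Igf2r and Airn stretches hold none, and 8.68% of the promoter stretches hold the letters. Of the 3 genes, 2 were matched in the table.

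The tumours had 5462555 to 6375069 counts in total, and a floor of 3 counts came to 0.445 to 0.660 CPM, which are counts per 1000000 TMM-scaled counts. As a check of the labels, the row over 690 bp of Uhrf1 exon held 685, 460 and 409 counts in sgUhrf1 tumours 1, 2 and 3, against 841, 917 and 554 in sgNT tumours 1, 2 and 3. The CPM ranges of the groups overlapped, and the log2 fold change of -0.37 ± 0.23 (SE) did not pass the edgeR quasi-likelihood test at an adjusted p of 0.05 (adjusted p = 0.227). The host's cells carry an intact Uhrf1, an edited gene can still be transcribed, and the row does not show the guide's cut, so this does not check the edit. The labelled lung cancer origin was set against 12 epithelial markers, of which 6 had a row: their summed CPM was 1960 to 3370 in sgUhrf1 tumours and 160 to 521 in sgNT tumours. Skeletal muscle markers, which mark neighbouring host tissue, summed to 409 CPM in sgUhrf1 tumour 1 and 535 CPM in sgNT tumour 2, against 4.43 to 29.4 in the other 4 tumours, so these tumours stand apart, and a call that is lost without them is given with its value.

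The rows of all 3 genes differed between the groups: the Igf2r row was 5.42-fold lower, the Meg3 row 6.37-fold higher and the Peg13 row 3.02-fold lower in sgUhrf1 tumours. The ranges of the groups did not overlap for any of the 3 rows, as for 56.1% of tested genes named by position and 54.4% of all tested rows. Calls were also common in these tumours. Of the 4579 genes named by position and tested, 42.1% were called, 20.6% higher and 21.5% lower, and over all 10503 rows tested the shares were 39.9% called, 20.2% higher and 19.7% lower. The 3 calls of 3 genes chosen with earlier results of these data known therefore say nothing particular about them as a set. Igf2r and Meg3 were above the count filter in both groups, while the Peg13 row passed it only through the sgNT tumours.

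**Figure D2:**
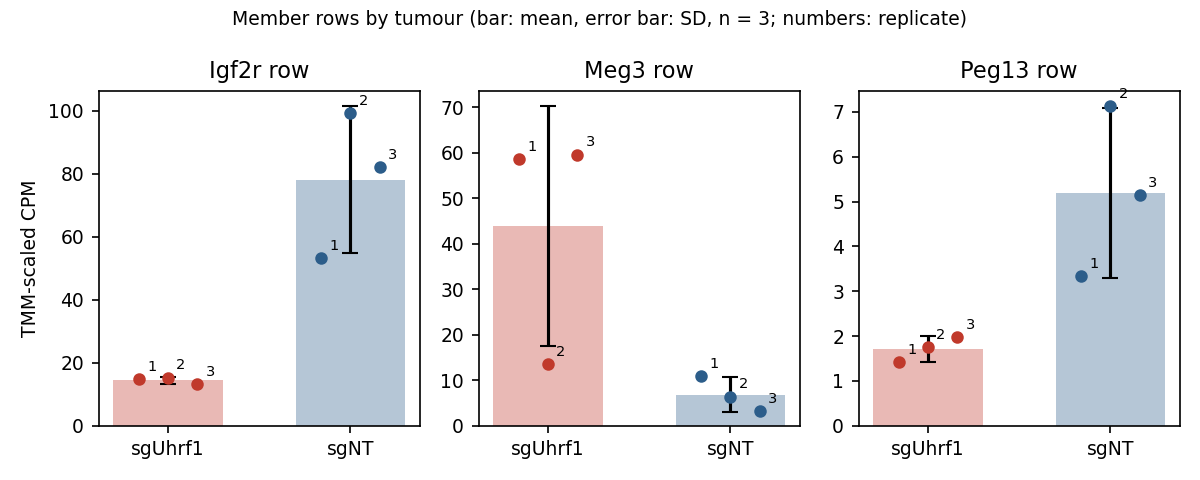
TMM-scaled CPM (vertical axes, each from 0) of the rows of Igf2r, Meg3 and Peg13 in sgUhrf1 and sgNT tumours; points are tumours with their replicate number, bars are means and error bars SD (n = 3). Igf2r sits between 13.2 and 15.2 CPM in sgUhrf1 tumours and between 53.2 and 99.2 CPM in sgNT tumours, and sgUhrf1 tumour 2 has 13.5 CPM of Meg3, against at most 10.9 CPM in sgNT tumours.

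Igf2r was lower in the sgUhrf1 tumours, and evenly so. Its row held 83, 96 and 60 counts in sgUhrf1 tumours 1, 2 and 3, against 336, 669 and 463 counts in sgNT tumours 1, 2 and 3. Scaled, these are 14.7, 15.2 and 13.2 CPM in sgUhrf1 tumours and 53.2, 99.2 and 82.1 CPM in sgNT tumours. The lowest sgNT tumour was thus above every sgUhrf1 tumour, and the spread within sgUhrf1 was small. The means were 14.4 ± 1.06 CPM in sgUhrf1 tumours and 78.1 ± 23.2 CPM in sgNT tumours (SD, n = 3 each). The log2 fold change was -2.44 ± 0.27 (edgeR quasi-likelihood test, adjusted p = 0.000316). Without sgUhrf1 tumour 1 and sgNT tumour 2, the muscle-rich ones, it was -2.25 ± 0.37 (adjusted p = 0.00571). In bulk tumours, fewer cells that express a gene and less RNA per cell cannot be told apart, and this holds for each gene here.

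Airn itself, the antisense RNA that silences Igf2r in cis, has no row over its exons alone. It lies on the plus strand at chr17:12741311-12860136 and overlaps the first part of Igf2r, and no row covers the overlap. A row listed as Slc22a2, of 2483 bp, lies within the span of Airn and covers 58 bp of exon of Mas1, a G protein-coupled receptor gene. It held 59, 46 and 31 counts in sgUhrf1 tumours, against 88, 62 and 55 counts in sgNT tumours. The CPM ranges overlapped, and the log2 fold change was -0.42 ± 0.33 (edgeR, adjusted p = 0.350). Counting was without strand, so Airn and Mas1 are not separated in it, and the row gives no level for Airn.

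The genes that share a pathway with Igf2r did not move as one. Of 20 genes for mannose 6-phosphate sorting and lysosomal enzymes, 8 were tested, of which 1 was higher, 1 was lower and 6 did not pass, with a median log2 fold change of -0.14 against 0.02 over all rows tested. M6pr, the smaller, cation-dependent mannose 6-phosphate receptor, was the higher one. It had 526, 542 and 600 CPM in sgUhrf1 tumours, against 329, 304 and 289 CPM in sgNT tumours, a log2 fold change of 0.85 ± 0.16 (edgeR, adjusted p = 0.00365). Without the muscle-rich tumours it was 0.88 ± 0.27, and the call was lost (adjusted p = 0.0581). The lower one was Lamp2, a lysosomal membrane protein whose row covers 66 bp of its exons, at -1.93 ± 0.19 (adjusted p = 0.000222).

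Of 14 genes of the insulin-like growth factor axis, 2 were tested. Insr, the insulin receptor, was lower, with 37.0, 26.2 and 15.8 CPM in sgUhrf1 tumours, against 48.3, 52.6 and 64.3 CPM in sgNT tumours. Its log2 fold change was -1.06 ± 0.30 (edgeR, adjusted p = 0.0216), a call lost without sgNT tumour 2 (-1.12, adjusted p = 0.0539) or sgNT tumour 3 (-0.94, adjusted p = 0.0732). Igfbp5, which encodes a binding protein for these factors, differed by 0.17 ± 0.63 on the log2 scale (adjusted p = 0.852). Igf2, the imprinted ligand that Igf2r removes, has no row of its own here.

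Meg3 was higher in the sgUhrf1 tumours, with wide spread among them. Its row held 331, 85 and 271 counts in sgUhrf1 tumours 1, 2 and 3, against 69, 43 and 18 counts in sgNT tumours 1, 2 and 3. That is 58.6, 13.5 and 59.6 CPM in sgUhrf1 tumours and 10.9, 6.37 and 3.19 CPM in sgNT tumours. The groups did not overlap, but sgUhrf1 tumour 2 lay much nearer to sgNT tumour 1 than to the other sgUhrf1 tumours. The means were 43.9 ± 26.3 CPM in sgUhrf1 tumours and 6.83 ± 3.89 CPM in sgNT tumours (SD, n = 3 each). The log2 fold change was 2.67 ± 0.60 (edgeR, adjusted p = 0.00770). Without the muscle-rich tumours the value was 2.35 ± 0.77, and the call was lost (adjusted p = 0.0672); without sgUhrf1 tumour 2 it was 3.09 ± 0.43 (adjusted p = 0.00171).

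Other rows of the Meg3 transcription unit were also higher. Of 6 tested rows at the locus 4 were called, all higher, the Meg3 row among them. Over all rows tested, 20.2% were called higher. Rows of 1 cluster are not separate evidence. Downstream of Meg3 on the same strand lies Rian, a maternally expressed RNA that hosts small nucleolar RNAs. A row of 31981 bp covers 654 bp of Rian exons, 534 bp of Meg3, 440 bp of Rtl1 and 272 bp of Gm26906. It held 690, 197 and 580 counts in sgUhrf1 tumours, against 123, 78 and 35 counts in sgNT tumours. Its groups did not overlap, and its order of tumours was that of the Meg3 row by counts. The log2 fold change was 2.91 ± 0.56 (edgeR, adjusted p = 0.00398). Rtl1, a retrotransposon-derived gene expressed from the paternal copy, is on the other strand, and the counting does not separate it.

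A row of 83 bp in a Meg3 intron, 125 bp from the nearest annotated exon and listed as Mir493, held 411, 149 and 157 counts in sgUhrf1 tumours, against 154, 78 and 24 counts in sgNT tumours. Its CPM ranges overlapped, and its log2 fold change was 1.70 ± 0.59 (edgeR, adjusted p = 0.0458). A row over 3639 bp of Rian and 153 bp of Gm37899 held 904, 243 and 650 counts in sgUhrf1 tumours, against 322, 295 and 79 counts in sgNT tumours. In that row sgUhrf1 tumour 2 lay below the first and second sgNT tumours. Its log2 fold change was 1.65 ± 0.56 (adjusted p = 0.0428), a call lost in 10 of 15 alternative settings, among them 5 that leave out 1 tumour each and the one that leaves out both muscle-rich tumours (1.47, adjusted p = 0.167).

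The remaining tested rows of the cluster are small. A row of 69 bp, all Rian exon, held 37, 15 and 7 counts in sgUhrf1 tumours, against 15, 14 and 3 counts in sgNT tumours, with a log2 fold change of 1.06 ± 0.70 (edgeR, adjusted p = 0.258). One of 68 bp with 24 bp of Rian exon had 1.69 ± 0.77 (adjusted p = 0.110). In both, the groups overlapped. Inside the Meg3 row lie 7 shorter rows listed under microRNA names, 5 of them over at least 50 bp of Meg3 exon, and all 7 held 0 counts in all tumours. featureCounts, run as the file headers show without its option for overlapping rows, gives a read pair in such shared positions to neither row, so these zeros do not show that Meg3 reads are missing there. Dlk1, the paternally expressed growth regulator at the other end of the cluster, and the noncoding RNA Mirg have no row over their exons.

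**Figure D3:**
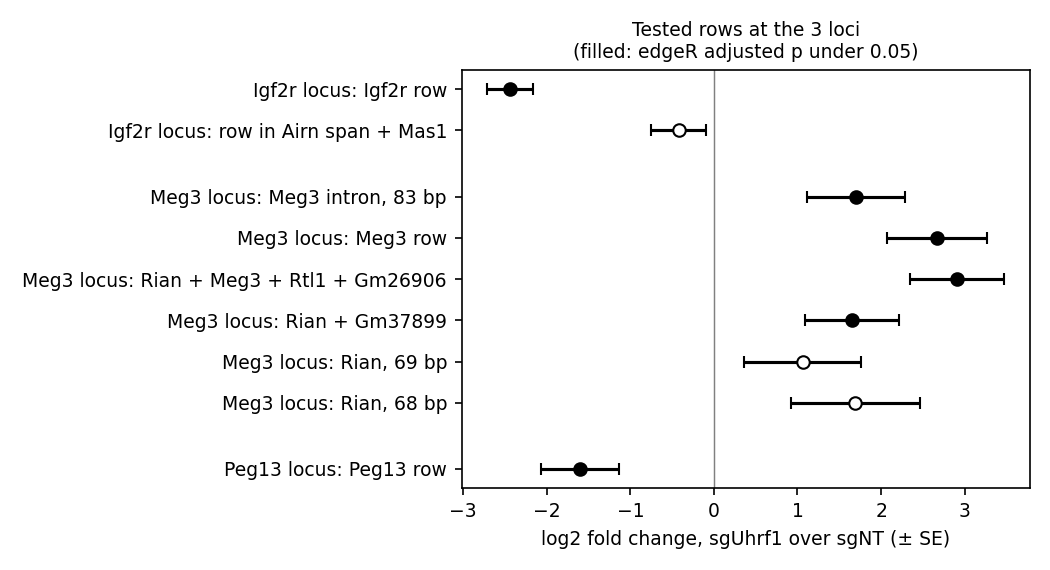
Log2 fold change, sgUhrf1 over sgNT (horizontal axis; points with SE, n = 3 per group), of tested rows at the loci of Igf2r, Meg3 and Peg13, with the genes whose exons it covers. The Igf2r row lies at -2.44, the 6 rows of the Meg3 locus lie above 0, from 1.06 to 2.91, and the Peg13 row lies at -1.60.

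Host cell markers varied within the groups as well, some in the order of Meg3 and some not. In sgUhrf1 tumours 1, 2 and 3, Col1a2, a collagen chain made by fibroblasts, had 15200, 5290 and 12200 CPM, against 7500, 9090 and 5430 CPM in sgNT tumours. C1qc, a complement subunit made by macrophages, had 386, 136 and 448 CPM in sgUhrf1 tumours, against 199, 237 and 153 CPM in sgNT tumours. In both, sgUhrf1 tumour 2 and sgNT tumour 3 were the lowest of their groups, as for Meg3, but the highest sgNT tumour was tumour 2 for both and tumour 1 for Meg3. Of 5 tested macrophage markers, 4 were lowest in the same 2 tumours as Meg3, and of 7 tested fibroblast markers, 1 was. Between the groups the lists differed from Meg3. Fibroblast markers, 8 of 12 with a row, summed to 7670 to 18000 CPM in sgUhrf1 tumours and 12200 to 19400 CPM in sgNT tumours; of 7 tested, 1 was higher and 3 were lower. Macrophage markers, 6 of 12 with a row, summed to 278 to 957 CPM in sgUhrf1 tumours and 504 to 789 CPM in sgNT tumours; of 5 tested, none was higher and 1 was lower. Endothelial markers, 7 of 10 with a row, summed to 88.9 to 151 CPM in sgUhrf1 tumours and 76.2 to 147 CPM in sgNT tumours, and none of 6 tested passed.

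Some lists did separate the groups. T cell markers, 5 of 12 with a row, summed to 81.6 to 206 CPM in sgUhrf1 tumours and 7.26 to 24.5 CPM in sgNT tumours, and all 4 tested were higher. The epithelial markers given above were higher in 4 of 5 tested. No marker with a row in these lists was at 0 in all tumours. The part of any of these cell types in the differences of Igf2r, Meg3 and Peg13 was not tested. The muscle markers were 409 CPM in sgUhrf1 tumour 1 and 24.2 CPM in sgUhrf1 tumour 3, while Meg3 was 58.6 and 59.6 CPM in the same tumours.

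**Figure D4:**
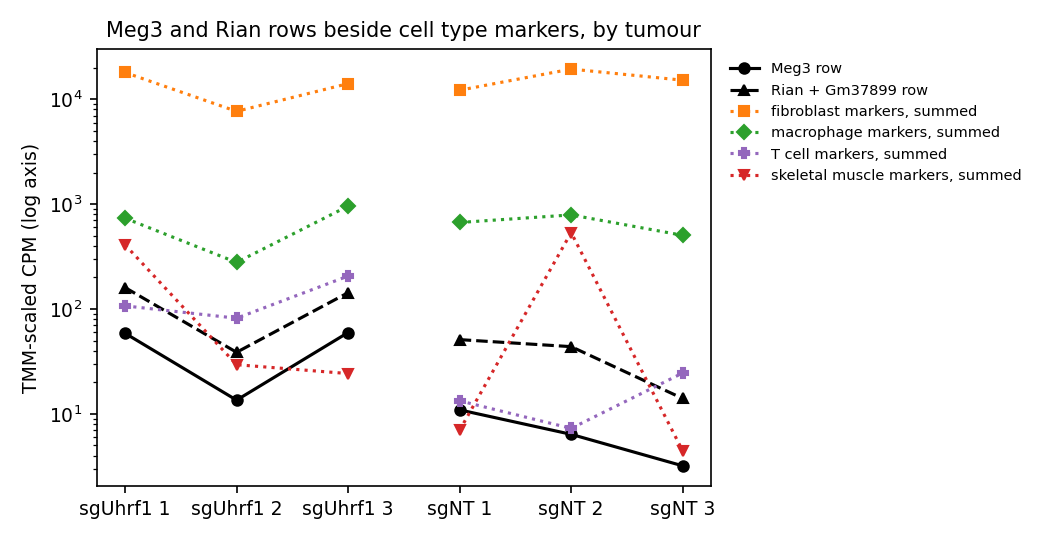
TMM-scaled CPM (log axis) of the Meg3 row, the row over Rian and Gm37899 and the summed markers of 4 cell types in each tumour; lines join tumours of a group only to guide the eye. Meg3 is lowest of its group in sgUhrf1 tumour 2 (13.5 CPM) and in sgNT tumour 3 (3.19 CPM). The fibroblast, macrophage and T cell sums are lowest of the sgUhrf1 group in tumour 2 as well (7670, 278 and 81.6 CPM). In the sgNT group the macrophage sum is lowest in tumour 3 (504 CPM), but the fibroblast sum in tumour 1 (12200 CPM) and the T cell sum in tumour 2 (7.26 CPM). The muscle sum is lowest in tumour 3 of each group (24.2 CPM in sgUhrf1 and 4.43 CPM in sgNT).

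The Peg13 row was lower in the sgUhrf1 tumours, on few counts. It held 8, 11 and 9 counts in sgUhrf1 tumours 1, 2 and 3, against 21, 48 and 29 counts in sgNT tumours 1, 2 and 3. Scaled, that is 1.42, 1.75 and 1.98 CPM in sgUhrf1 tumours and 3.33, 7.12 and 5.14 CPM in sgNT tumours. All sgUhrf1 values were below all sgNT values and above the floor of 3 counts. The means were 1.71 ± 0.283 CPM in sgUhrf1 tumours and 5.19 ± 1.90 CPM in sgNT tumours (SD, n = 3 each), and the log2 fold change was -1.60 ± 0.47 (edgeR, adjusted p = 0.0253). The call rests on single tumours: it was lost without sgNT tumour 2 (-1.32, adjusted p = 0.129), sgNT tumour 3 (-1.62, adjusted p = 0.0783), sgUhrf1 tumour 1 (-1.48, adjusted p = 0.0813) or sgUhrf1 tumour 2 (-1.62, adjusted p = 0.0593). Without both muscle-rich tumours it was -1.18 ± 0.69 (adjusted p = 0.257).

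Since most of that row lies in introns of Trappc9, a trafficking-complex gene expressed around Peg13, the counts in other Trappc9 intron rows were set beside it. There were 6 rows over Trappc9 introns alone, with 21837 bp, and they held 18 counts in the sgUhrf1 tumours together and 18 in the sgNT tumours, or 0.824 counts per kb in each group. Among them, a row of 14031 bp with 20 of the counts and a row of 2353 bp with 0 counts share positions. Those positions enter the 21837 bp from both rows, and read pairs there go to neither. The density is therefore too low, by an amount that was not measured. The Peg13 row held 28 counts in sgUhrf1 tumours, or 3.53 per kb, against 98 counts in sgNT tumours, or 12.3 per kb. The Peg13 row was thus denser than those introns, as counted, in both groups, and more so in sgNT tumours. At the counted density of those introns, the 7773 bp of the row outside Peg13 would hold 6.41 counts in each group. These sums cover counting only, and intron density need not be even, so they do not assign the rest of the counts to Peg13. Trappc9 and the imprinted potassium channel gene Kcnk9 next to it have no row over their exons alone.

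The exon share of a row went with its fold change in these files. Among tested rows over 1 gene, the 1112 with under 5% exon had a median log2 fold change of -0.33, with 12.9% called higher and 26.4% lower. The 710 rows with at least 80% exon had a median of 0.14, with 22.0% higher and 15.5% lower. Against rows of its own class, the Peg13 row, with under 5% exon, was lower than 87.6% of them. Igf2r, in the class of 10 to 30% exon with 1786 rows and a median of -0.08, was lower than 97.4% of its class. Meg3, in the class of 50 to 80% exon with 448 rows and a median of -0.01, was higher than 94.2%. The part of intron counts in the 3 differences was not tested.

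Set beside the known methylation control, the 3 rows went in different ways. Igf2r lower and Meg3 higher are the directions that loss of methylation at their control regions is known to give. The Peg13 row was lower, opposite to the direction known for Peg13 itself. Only 2.07% of that row is Peg13, so it gives no direction for Peg13 RNA. To place them, other imprinted genes were grouped by the same property. Of 23 genes listed as having a promoter methylated on the silent copy, 8 were tested. Of these, 2 were higher, 3 were lower, the Peg13 row among them, and 3 did not pass, with a median log2 fold change of -0.03. The Peg13 row is in this tally and median by the naming rule only. It is mostly not Peg13 and passed the count filter only through the sgNT tumours, so its call says nothing about the group. Of 20 genes expressed from the copy that carries the methylation of their control region, 4 were tested: 1 was higher, 2 were lower and 1 did not pass, with a median of -1.16. Leaving out Igf2r, Meg3 and Peg13, 5 of 9 tested imprinted genes were called, where 42.1% of all genes named by position were. Neither group moved in a single direction. With the Peg13 row set aside, the first group still had Meg3 and Peg3 higher and Peg10 and Sgce lower.

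In the first group, Peg3, a paternally expressed zinc finger gene, was higher like Meg3. It had 19.7, 8.25 and 6.38 CPM in sgUhrf1 tumours, against 3.33, 5.04 and 2.48 CPM in sgNT tumours, a log2 fold change of 1.65 ± 0.51 (edgeR, adjusted p = 0.0290). That call was lost in 5 of 15 alternative settings, among them without sgUhrf1 tumour 1 (1.00, adjusted p = 0.147), sgNT tumour 1 (1.56, adjusted p = 0.0834), sgNT tumour 3 (1.44, adjusted p = 0.0970) or the muscle-rich tumours (1.32, adjusted p = 0.156). Peg10 and Sgce, neighbouring paternally expressed genes that share a control region, were lower like the Peg13 row. Peg10, a retrotransposon-derived gene, had 5.67, 2.54 and 5.72 CPM in sgUhrf1 tumours, against 140, 165 and 249 CPM in sgNT tumours, at -5.33 ± 0.37 (adjusted p = 0.000103). Sgce, which encodes epsilon-sarcoglycan, had 26.4, 16.3 and 27.9 CPM in sgUhrf1 tumours, against 99.1, 114 and 101 CPM in sgNT tumours, at -2.16 ± 0.24 (adjusted p = 0.000329). The rows of Peg10 and Sgce lie wholly on their exons. The remaining ones did not pass the test: Rian, on its row of 69 bp as given above, H19, the maternally expressed RNA beside Igf2, at 0.19 ± 0.48 (adjusted p = 0.779), and Kcnq1ot1, the antisense RNA of the Kcnq1 cluster, at -0.26 ± 0.49 (adjusted p = 0.705). The rows given above with more Rian exon, shared with other genes, were called higher and are not in this tally.

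In the second group, to which Igf2r belongs, Kcnq1, a potassium channel gene silenced in cis by Kcnq1ot1 much as Igf2r is by Airn, was higher. Its row covers 295 bp of exon in 2833 bp and had 69.8, 148 and 130 CPM in sgUhrf1 tumours, against 10.8, 14.4 and 5.67 CPM in sgNT tumours. The log2 fold change was 3.49 ± 0.39 (edgeR, adjusted p = 0.000373), opposite in sign to that of Igf2r. Copg2, a coatomer subunit gene beside Mest with 72 bp of exon in its row, was lower at -1.46 ± 0.37 (adjusted p = 0.0126). That call was lost without sgNT tumour 2 (-1.36, adjusted p = 0.0581) and with both muscle-rich tumours left out (-1.15, adjusted p = 0.166). A row shared by Copg2 and Mest, with more exon of Copg2 than of Mest, had 84.1, 85.9 and 85.1 CPM in sgUhrf1 tumours, against 79.8, 82.4 and 88.6 CPM in sgNT tumours. It differed by 0.02 ± 0.16 on the log2 scale (adjusted p = 0.918), so the lower level of Copg2 was not seen over that stretch. Rasgrf1, a guanine nucleotide exchange factor gene, had -0.87 ± 0.35 (adjusted p = 0.0782).

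**Figure D5:**
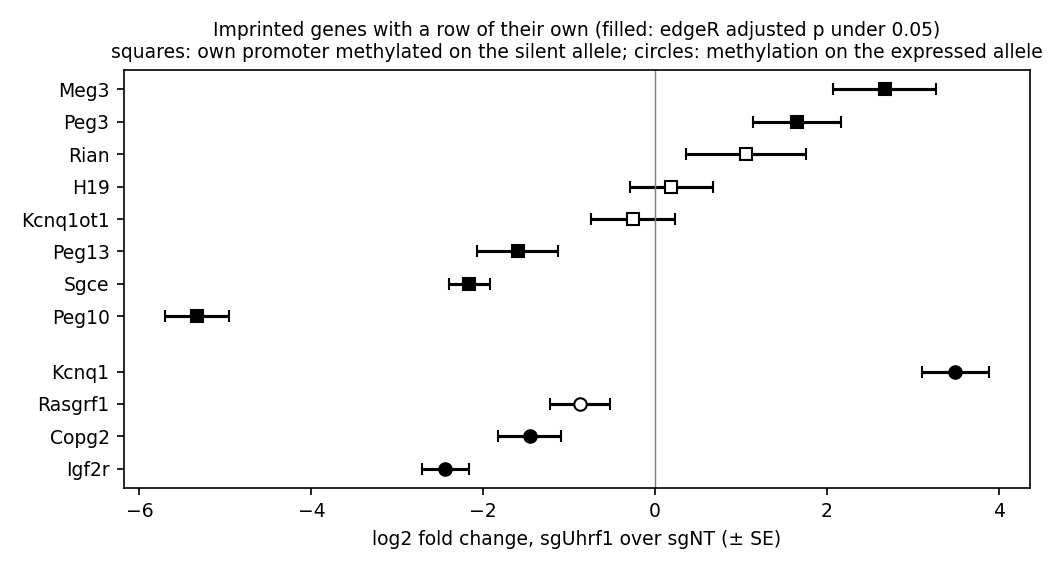
Log2 fold change, sgUhrf1 over sgNT (horizontal axis; points with SE, n = 3 per group), of the 12 imprinted genes with a tested row of their own. Squares are genes listed as having a promoter methylated on the silent copy, from Meg3 at 2.67 to Peg10 at -5.33, and circles are genes expressed from the copy with the methylation, from Kcnq1 at 3.49 to Igf2r at -2.44. The Peg13 square is a row of which 2.07% is Peg13, so it gives no direction for that RNA.

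Genes that act on methylation or imprinting at all 3 loci were also described. Ctcf, an insulator protein that binds unmethylated control regions, had 10.3, 11.1 and 6.38 CPM in sgUhrf1 tumours, against 14.1, 20.0 and 18.1 CPM in sgNT tumours. The groups did not overlap, and the log2 fold change was -0.90 ± 0.31 (edgeR, adjusted p = 0.0458) on a row with 84 bp of exon, a call lost in 7 of 15 alternative settings, among them without the muscle-rich tumours (-0.87, adjusted p = 0.236) and without 1 tumour, in 4 of 6 cases. Dnmt1 had 57.4, 50.2 and 29.7 CPM in sgUhrf1 tumours, against 56.5, 75.5 and 57.1 CPM in sgNT tumours, with overlapping groups, and differed by -0.46 ± 0.26 on the log2 scale (adjusted p = 0.196).

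Finally, genes with the pattern most like each of the 3 were named by the root mean square difference of centred log2 CPM over the 6 tumours, among 2975 genes, as a description. For Igf2r these were Sec24d, a vesicle coat gene, at 0.0801, Cnot1, a scaffold of the deadenylation complex, at 0.105 and Anapc1, a subunit of the anaphase-promoting complex, at 0.115, against a median of 1.21 over the pool. For Meg3 they were Siglece, a sialic acid receptor of myeloid cells, at 0.421, Aif1, a macrophage gene, at 0.422 and Hoxc6, a homeobox gene, at 0.513, against 1.57. Aif1 had 88.7, 39.4 and 172 CPM in sgUhrf1 tumours, against 33.9, 19.9 and 13.6 CPM in sgNT tumours. Aif1 was also lowest in sgUhrf1 tumour 2 and in sgNT tumour 3. Since it was picked for its likeness to Meg3 over these tumours, that adds nothing on Meg3. For the Peg13 row they were Myo1e, an unconventional myosin gene, at 0.110, Atf6, a sensor of endoplasmic reticulum stress, at 0.125 and Grik5, a glutamate receptor subunit gene, at 0.157, against 0.788. The values for Meg3 were larger than those of the others, so no gene in the pool followed it as closely.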

How the data were processed

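Bulk RNA of 6 mouse tumours was measured, 3 sgUhrf1 and 3 sgNT. The deposited values are counts of read pairs per row, not normalized. Per the submitters' processing notes, the tools were fastp, STAR and featureCounts and the build was GRCm38. Per the file headers, featureCounts 2.0.1 counted pairs without strand over the GENCODE M26 annotation, whose coordinates are GRCm39. Rows were therefore named by position, from at least 50 bp of exon of a single GENCODE M21 gene with small RNAs ignored. Of 53599 rows, 13432 were so named and held 41.4% of the counts. All rows were tested with edgeR 4.0.16 (R 4.3.3) by the quasi-likelihood test, with TMM scaling. The filterByExpr filter, at a minimum count of 10 and a minimum total of 15, kept 10503 rows, over which p-values were adjusted by Benjamini-Hochberg, with a threshold of 0.05. The scripts were tested on simulated counts. DESeq2 1.42.0, limma 3.58.1, other scalings, filters, rows and sample sets were alternatives. Named are the 3 genes, tested imprinted and neighbouring genes, up to 4 called members of other lists, and the 3 genes most like each in pattern; members and lists were chosen with earlier results of these data known, and host markers shown beside Meg3 were chosen after their values were seen. Log2 CPM used a prior count of 2. Some results are not reported here. Counts give no allele and no methylation.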

Additional observations from a re-analysis of the deposited data

How the results depend on the processing

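Igf2r was lower past the threshold in all 18 alternatives run, from -2.68 to -2.25 on the log2 scale, and Meg3 was higher past it in 19 of 20, from 1.70 to 3.15. The exception for Meg3, and 1 of 6 for the Peg13 row, is leaving out the tumours richest in muscle reads, which gave 2.35 for Meg3 and -1.18 for Peg13, with 1094 rows higher and 771 lower in all, against 2121 higher and 2066 lower with all tumours. Leaving out 1 tumour at a time gave -2.68 to -2.26 for Igf2r, 2.34 to 3.15 for Meg3 and -1.86 to -1.32 for the Peg13 row, which lost its call in 4 of 6; the rows called were 1431 to 2020 higher and 1259 to 1908 lower, the lowest in both without sgNT tumour 2. Replicate numbers do not pair the tumours (correlations of deviations -0.079, -0.021 and 0.050), and with the replicate block the Peg13 row was at -1.55 (edgeR, adjusted p = 0.0517), while Igf2r and Meg3 kept their calls. Without 1 tumour H19 ranged from -0.57 to 0.70, changing sign 3 times, and Kcnq1ot1 from -0.60 to 0.20, changing sign 2 times; H19 was at -0.03 without the muscle-rich tumours, and neither was called. Library totals alone shifted the median of all rows to -0.14, with 41.8% of calls higher against 50.7%, and changed no call of the 3 genes. The Peg13 row was not tested at a minimum count of 30 and has under 200 bp of exon. No second row with counts covers 1 of the genes alone, so the sum of rows equals the value reported. For Igf2r and Meg3, asking for 200 bp of exon or not ignoring small RNAs picked the same row. Those settings gave the same values and are no further check. The shared and intron rows of Meg3 were added after the data were seen, and no shared row is among the alternatives of Igf2r. Causes were not tested.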
